A study of Homo sapiens with 6 samples.

Results

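Transforming growth factor beta (TGF-beta), activins and bone morphogenetic proteins (BMPs) are secreted ligands of 1 protein family. They bind pairs of type I and type II serine/threonine kinase receptors, which phosphorylate SMAD proteins that enter the nucleus with SMAD4 and regulate genes. TGF-beta and activin signal mainly through SMAD2 and SMAD3 and BMPs mainly through SMAD1, SMAD5 and SMAD9, while SMAD6 and SMAD7 are inhibitory members that limit the same signal and are induced by it. The ID genes are well-known BMP targets and encode small helix-loop-helix proteins without a DNA-binding region, which hold E proteins and related factors away from DNA. In epithelial cells the pathway is known for its part in growth arrest, in the epithelial to mesenchymal transition and in the choice between growth and differentiation.

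The 10 genes described here were chosen by symbol from these roles among the 28395 genes of the table. The choice was made with earlier results of these data known, so the shares called among them are descriptions only. TGFB1, TGFB2, INHBA, BMP2 and BMP4 encode ligands, SMAD6 and SMAD7 encode the inhibitory SMADs, and ID1, ID2 and ID3 are targets. RNA was sequenced from HCC827, a human lung adenocarcinoma line in long use whose EGFR gene has an activating deletion. The cells were treated for 24 h with the vehicle DMSO or with 1 μM erlotinib, a small molecule inhibitor of the EGFR kinase, and the comparison asks which transcripts change when EGFR is inhibited. Each group held 3 libraries, named DMSO1 to DMSO3 and Erlo4 to Erlo6, and values are given below in that order. HCC827 is 1 cell line. The study's methods state in general that experiments were done in independent repeats, but neither they nor the labels say that the libraries of a group are such repeats. The p-values then measure the spread between these libraries, which may be technical.

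The DMSO libraries held 20858083, 24641819 and 21172884 reads on genes and the erlotinib libraries 21944007, 20760204 and 21678395. Values are given as signal, the reads of a gene divided by 1 size factor per library. At this depth a gene with a signal near 10 rests on about as many reads per library. The epithelial label was checked with EPCAM, at a mean signal of 9852 in DMSO and 9485 with erlotinib, and CDH1 (E-cadherin), at 27824 and 30609, neither of which passed the test, while the 4 keratin genes measured beside them were lower with erlotinib. Markers of other cell types were low. The summed signal of 6 fibroblast markers was 5.67, 5.57 and 13.9 in DMSO and 14.8, 9.90 and 27.2 with erlotinib, with LUM the most abundant, and that of 4 endothelial markers was 34.0, 15.8 and 20.3 against 58.1, 46.5 and 45.9. Of the endothelial markers VWF had a signal of 3.40, 0.929 and 7.49 in DMSO and 35.1, 25.7 and 21.5 with erlotinib, and it could be tested only because of the erlotinib values. PECAM1 did not pass the test, and KDR was at 0 in every DMSO library. No fibroblast marker reached a level that could be tested. Of 4 leukocyte markers 3 were too low to test, with PTPRC at 5.62 or less in every library, while CD68, which other cells also express, averaged 2898 in DMSO and 3394 with erlotinib (adjusted p = 0.00762). Whether other cell types had a part in any result was not tested, and in bulk RNA fewer cells of a type and less RNA per cell cannot be told apart. The 14215 genes whose signal averaged at least 10 entered 1 limma fit of log2(signal + 1), and each p given as adjusted is a Benjamini-Hochberg value over all of these genes.

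All 10 genes passed that filter on low values. With erlotinib 8 of the 10 were higher (80%), 1 was lower and 1 passed the test in neither direction, against 35.3% of all tested genes called higher and 35.4% called lower. The 3 ID genes, both inhibitory SMADs, TGFB2, INHBA and BMP2 rose, TGFB1 fell, and BMP4 did not pass the test. The rise was at least 1 log2 unit for 4 of the 10 genes, INHBA, BMP2, ID2 and ID3, against 17.0% of all tested genes. The DMSO and erlotinib libraries did not overlap for 9 of the 10 genes, against 73.6% of all tested genes, so non-overlap alone says little in this comparison. The median log2 fold change was 0.87 over the 10 genes and 0.02 over all genes tested.

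**Figure D1:**
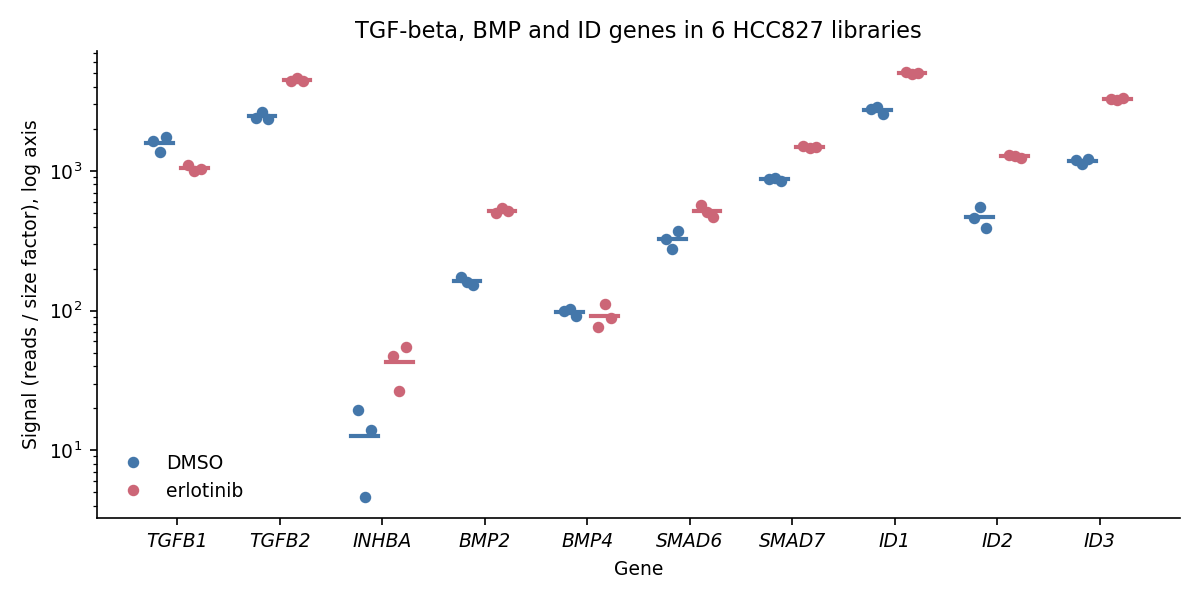
Signal of each of the 10 genes in the 6 libraries, in reads divided by the size factor of the library, on a log axis. Points are single libraries, 3 with DMSO and 3 with erlotinib, and the bar is the group mean. The groups overlap for BMP4 and are apart for the other genes, with TGFB1 lower and the rest higher with erlotinib.

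The promoters of the 3 ID genes are shown because the genes moved together, and that of SMAD6 was picked after 13 windows of 9 of the 10 genes had been searched, because it holds a motif that few promoters have. Each sequence is the 250 bases before the RefSeq start of the gene in GRCh38.p14, read 5′ to 3′ on the strand of the gene. Capitals mark matches on either strand to any of 6 motifs, GTCTAGAC (a palindrome of 2 SMAD half-sites), GGCGCC (a GC-rich SMAD element), CAGAC (the core of the CAGA box), TGANTCA (AP-1), TGTTTAC (FOXO) and TATAAA (the TATA box). ID1 lies at chr20:31605039-31605288 on the plus strand, ID2 at chr2:8681806-8682055 on the plus strand, ID3 at chr1:23559502-23559751 on the minus strand and SMAD6 at chr15:66701986-66702235 on the plus strand.
ID1: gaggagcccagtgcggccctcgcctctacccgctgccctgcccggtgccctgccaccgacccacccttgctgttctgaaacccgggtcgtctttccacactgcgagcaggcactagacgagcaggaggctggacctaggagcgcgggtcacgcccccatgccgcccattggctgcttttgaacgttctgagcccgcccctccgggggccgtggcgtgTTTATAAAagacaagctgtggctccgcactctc
ID2: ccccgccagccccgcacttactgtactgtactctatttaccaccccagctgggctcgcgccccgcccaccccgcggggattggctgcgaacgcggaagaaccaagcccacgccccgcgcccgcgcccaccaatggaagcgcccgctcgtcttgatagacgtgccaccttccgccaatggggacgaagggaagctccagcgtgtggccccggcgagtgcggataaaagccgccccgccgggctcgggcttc
ID3: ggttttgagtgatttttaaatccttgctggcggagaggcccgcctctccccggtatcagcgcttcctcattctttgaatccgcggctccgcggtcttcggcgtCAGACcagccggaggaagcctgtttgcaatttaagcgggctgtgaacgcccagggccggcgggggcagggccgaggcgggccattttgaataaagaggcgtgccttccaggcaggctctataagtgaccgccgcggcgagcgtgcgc
SMAD6: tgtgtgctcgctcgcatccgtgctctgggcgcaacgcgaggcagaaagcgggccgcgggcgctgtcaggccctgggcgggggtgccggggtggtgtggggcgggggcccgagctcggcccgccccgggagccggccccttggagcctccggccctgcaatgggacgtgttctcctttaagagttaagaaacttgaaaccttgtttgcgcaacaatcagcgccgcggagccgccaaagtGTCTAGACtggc
The SMAD6 window holds GTCTAGAC 12 to 5 bases before the start and no other of the motifs. GTCTAGAC was found in 0.182% of 35116 promoter windows of the same length. The ID1 window holds TATAAA on both strands in 1 overlapping stretch that begins 33 bases before the start, and TATAAA is in 10.7% of all windows. The ID3 window holds CAGAC 147 to 143 bases before the start, as do 38% of all windows, and the ID2 window holds none of the 6 motifs. Among the windows not printed, CAGAC was found at 2 places for TGFB2, at 3 for SMAD7 over its 3 windows and at 2 for BMP4 over its 3 windows, and BMP4, which did not pass the test, also held GGCGCC (16.4% of all windows). TGFB2, INHBA and SMAD7 each held TATAAA, and TGFB1 held none of the 6 motifs. BMP2 was the gene without a window. Since SMAD6 was chosen for its match, the share of all windows beside it is a description only. Such a match is a run of letters in the reference and not a measured binding site, and a window without one says only that these letters are not in it.

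The genes of TGF-beta and activin ligands moved in both directions. TGFB1 (Entrez 7040, chromosome 19, 41330323 to 41353922, GRCh38) encodes the most widely expressed TGF-beta. Its signal was 1649, 1363 and 1762 in DMSO and 1111, 994.9 and 1033 with erlotinib. Every erlotinib library was below every DMSO library, and TGFB1 fell to 0.66 of its DMSO mean. The mean went from 1591 ± 205 to 1046 ± 59.2 (SD, n = 3), a log2 fold change of -0.60 with a standard error of 0.09 and an adjusted p of 8.1e-06. TGFB2 (Entrez 7042, chromosome 1, 218345336 to 218444619) encodes another TGF-beta, which binds its receptors poorly without the co-receptor betaglycan. Its signal was 2403, 2634 and 2374 in DMSO and 4384, 4658 and 4446 with erlotinib. The distance between the groups was many times their spread, with means of 2470.1 ± 142 and 4496 ± 143, a log2 fold change of 0.86, a standard error of 0.07 and an adjusted p of 4.3e-10. TGFB2 overlaps the antisense gene TGFB2-AS1, whose mean signal was 15.9 in DMSO and 12.01 with erlotinib, and the strand that was counted is not given in the sources used here. BMP4 and ID3 also overlap other annotated genes, whose signal was not analysed here.

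INHBA (Entrez 3624, chromosome 7, 41685114 to 41705406) encodes the beta A subunit that forms activin A. It was the lowest member, with 17, 5 and 13 reads in DMSO and 51, 27 and 59 with erlotinib, or a signal of 19.3, 4.64 and 13.9 against 47.1, 26.7 and 55.2. The lowest erlotinib library was above the highest DMSO library, but by less than the range within either group. The mean rose 3.41-fold, from 12.6 ± 7.41 to 43.0 ± 14.7, with a log2 fold change of 1.82, a 95% interval of 0.81 to 2.82 and an adjusted p of 0.00219. That interval was the widest of the 10 genes. DMSO2 held the lowest value, and without that library the log2 fold change was 1.28 with an adjusted p of 0.00877. INHBA-AS1, which overlaps INHBA, averaged 0 in DMSO and 1.28 with erlotinib.

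BMP2 and BMP4 encode closely related BMPs that signal through the same receptors, and only BMP2 passed the test. BMP2 (Entrez 650, chromosome 20, 6767686 to 6780246) had a signal of 174, 160 and 152 in DMSO and 498, 543 and 520 with erlotinib. The groups were far apart relative to their spread, and the mean rose 3.22-fold, from 162 ± 10.9 to 520.1 ± 22.1 (log2 fold change 1.68, standard error 0.13, adjusted p = 1.8e-10). BMP4 (Entrez 652, chromosome 14, 53949736 to 53956891) had a signal of 99.8, 102 and 91.0 in DMSO and 75.7, 111 and 88.9 with erlotinib. The lowest and the highest of the 6 BMP4 values were both erlotinib libraries, so the groups overlapped. Its log2 fold change was -0.10 with a 95% interval of -0.54 to 0.33 and an adjusted p of 0.671, which leaves room for a moderate change in either direction.

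The inhibitory SMADs both rose by similar factors. SMAD6 (Entrez 4091, chromosome 15, 66702236 to 66782849), which acts mainly on the BMP branch, had a signal of 327, 277 and 371 in DMSO and 569, 505 and 472 with erlotinib. Its groups did not overlap, but they lay closer than those of SMAD7, and SMAD6 rose by 0.67 log2 units (standard error 0.13, adjusted p = 7.7e-05). SMAD7 (Entrez 4092, chromosome 18, 48919853 to 48950965), which acts on both branches by bringing SMURF ubiquitin ligases to the receptors, had a signal of 872, 896 and 846 in DMSO and 1511, 1467 and 1486 with erlotinib. The spread within a group was small for SMAD7 (SD 25.3 in DMSO and 21.8 with erlotinib), and the mean rose 1.71-fold, a log2 fold change of 0.77 with an adjusted p of 2.4e-08.

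All 3 ID genes rose. ID1 (Entrez 3397, chromosome 20, 31605289 to 31606510) had a signal of 2801, 2876 and 2580.5 in DMSO and 5119.8, 4951 and 5008 with erlotinib, so that the mean rose 1.83-fold (log2 fold change 0.87, standard error 0.07, adjusted p = 2.7e-10). ID2 (Entrez 3398, chromosome 2, 8682056 to 8684461) had a signal of 464, 549.8 and 391 in DMSO and 1303, 1280.0 and 1237 with erlotinib. ID2 varied more between DMSO libraries than between erlotinib libraries (SD 79.6 and 33.8), and the mean rose 2.72-fold (log2 fold change 1.46, standard error 0.11, adjusted p = 1.6e-10). ID3 (Entrez 3399, chromosome 1, 23557926 to 23559501) had a signal of 1190.0, 1125 and 1209 in DMSO and 3264, 3203 and 3326 with erlotinib. The 3 values of ID3 in each group lay close together, and with a log2 fold change of 1.47, a standard error of 0.07 and an adjusted p of 1.6e-13 it had the smallest p of the 10 genes. The ID2 transcript aligned over 99.4% of its length and at 96.58% identity to a copy without introns on chromosome 3 (62123426 to 62124718), where GENCODE places the processed pseudogene ID2B, and over 48.9% of its length and at 92.19% identity to a part copy on chromosome 21 (31759983 to 31761055). Reads that map equally to more than 1 of these places were not counted. The level of ID2 is therefore uncertain. For the other 9 genes no other place in the genome held 40% or more of the transcript.

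**Figure D2:**
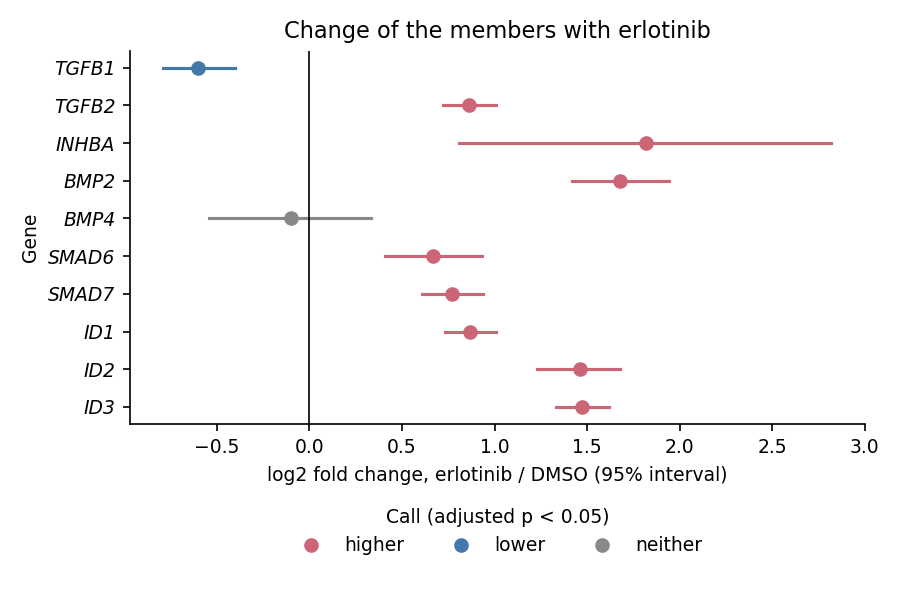
Log2 fold change of erlotinib against DMSO for each of the 10 genes on log2(signal + 1), with its 95% interval from limma. The interval of BMP4 includes 0, that of TGFB1 lies below 0 and those of the other 8 genes lie above 0, with INHBA the widest.

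Levels of different genes were compared per kb of the MANE transcript, and here the ID genes stood at the top. In DMSO the mean signal per kb was 2800.1 ± 156 for ID1 and 1237 ± 46.8 for ID3 (SD, n = 3). The TGF-beta genes and ID2 formed a middle group, with TGFB1 at 573 ± 73.9, TGFB2 at 421 ± 24.3 and ID2 at 360.4 ± 61.3 per kb. Of the inhibitory SMADs, SMAD7 (261 ± 7.58 per kb) was above SMAD6 (84.9 ± 12.4). The BMPs were lower, with BMP4 at 50.6 ± 3.06 and BMP2 at 45.6 ± 3.08 per kb, and INHBA was last at 2.09 ± 1.23. Neighbours in this order were apart in every library except TGFB2 and ID2, and BMP4 and BMP2, whose libraries overlapped. With erlotinib ID1 (5113 ± 87.4 per kb) and ID3 (3436 ± 64.9) held the first places, and ID2 (980.1 ± 26.0) came above TGFB2 (766 ± 24.4). SMAD7 (445 ± 6.53) was then above TGFB1 (376 ± 21.3), and BMP2 (147 ± 6.23) overlapped SMAD6 (135 ± 13.0) and was above BMP4 (47.6 ± 9.21). INHBA remained last, at 7.11 ± 2.43 per kb. Levels per kb rest on 1 transcript per gene, and the aligner used does not split reads over introns.

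Ratios between members of like role were taken within each library, where the scaling of the library drops out. The log2 ratio of TGFB2 to TGFB1 was 0.54, 0.95 and 0.43 in DMSO and 1.98, 2.23 and 2.10 with erlotinib. These ratios are of signal not divided by length, so they give the change of the ratio, which was 1.46 log2 units, and not which gene was higher. Per kb TGFB1 was above TGFB2 in DMSO and below it with erlotinib, as the levels above show. The ratio of BMP2 to BMP4 was 0.79, 0.64 and 0.73 in DMSO and 2.70, 2.28 and 2.53 with erlotinib, a difference of 1.78. The balance of the ID genes also shifted, with ID1 rising by the smallest factor. The log2 ratio of ID1 to ID2 was 2.59, 2.39 and 2.72 in DMSO and 1.97, 1.95 and 2.02 with erlotinib, and that of ID1 to ID3 went from 1.23, 1.35 and 1.09 to 0.65, 0.63 and 0.59. None of these 4 ratios overlapped between groups. Each had p = 0.1 in the two-sided exact permutation test, the smallest that 3 against 3 libraries allow, and 0.15 after Benjamini-Hochberg adjustment over the 6 ratios computed, so none could pass 0.05. The ratios of SMAD7 to SMAD6 (1.43 ± 0.25 in DMSO, 1.53 ± 0.12 with erlotinib, SD, n = 3, exact permutation p = 0.7) and of ID2 to ID3 (-1.34 ± 0.30 and -1.36 ± 0.06, exact permutation p = 1) overlapped between the groups.

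**Figure D3:**
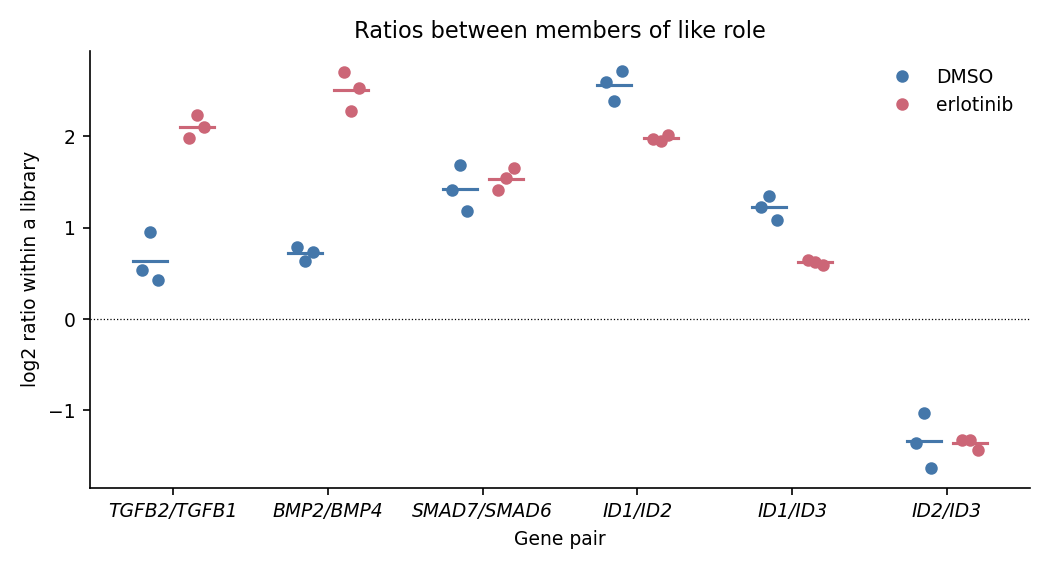
Within-library log2 ratio of 6 pairs of genes in the 3 DMSO and the 3 erlotinib libraries, with group means. TGFB2/TGFB1 and BMP2/BMP4 are higher and ID1/ID2 and ID1/ID3 lower with erlotinib, while SMAD7/SMAD6 and ID2/ID3 overlap.

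The fourth ID gene was not among the 10, and its log2 fold change was above that of each of them, a difference that was not tested. ID4 (Entrez 3400) had a signal of 80.5, 91.0 and 92.1 in DMSO and 593, 562 and 515 with erlotinib, and the log2 fold change came to 2.65 with a standard error of 0.14 (adjusted p = 7.8e-13). Summed over ID1 to ID4, the signal per kb was 4479.9, 4556 and 4223 in DMSO and 9800.4, 9538 and 9680.4 with erlotinib. ID1 made up 63.6%, 64.2% and 62.2% of that sum in DMSO and 53.1%, 52.8% and 52.6% with erlotinib. The share of ID3 went from 28%, 26% and 30.1% to 35.1%, 35.3% and 36.2%. The share of ID2 went from 7.97%, 9.29% and 7.12% to 10.2%, 10.3% and 9.83%, and that of ID4 was at most 1.56% in any library. Of the E proteins that ID proteins bind, TCF3 fell (log2 fold change -0.28, adjusted p = 0.00189) and TCF12 rose by 0.19 (adjusted p = 0.0485), while TCF4 was too low to test. Neither call held under every alternative. TCF3 did not pass the test under total count scaling (log2 fold change -0.11, adjusted p = 0.214), which moved the median of all tested genes from 0.02 to 0.19. TCF12 did not pass it without DMSO3 (0.12, adjusted p = 0.222), nor without DMSO1, Erlo4, Erlo5 or Erlo6 (adjusted p = 0.0548, 0.187, 0.0701 and 0.088). TCF12 also failed it in limma with TMM factors, a pseudocount of 0.1 or no filter (adjusted p = 0.0655, 0.0505 and 0.0563).

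The rest of the pathway was covered by 9 lists, also chosen with earlier results of these data known. They hold 103 genes, of which 69 could be tested. Of these 69, 38 were higher with erlotinib (55.1%), 16 lower and 15 neither, against 35.3% of all tested genes higher and 35.4% lower. The 38 include BMP3, which entered the test only through its erlotinib values, and the 16 include FST, which entered only through DMSO. The median change of the 69 genes was 0.30 log2 units, against 0.02 over all tested genes. Among the other ligands of the TGF-beta and activin branch 3 of 10 could be tested, and 2 of these were higher and 1 lower. INHBB, which encodes the beta B subunit of activins, had a signal of 194, 114 and 179.8 in DMSO and 587, 579 and 618 with erlotinib (log2 fold change 1.90, adjusted p = 1.2e-09). TGFB3, the third TGF-beta, rose by 1.85 (adjusted p = 1.5e-06) and GDF11 fell by 0.50 on the log2 scale (adjusted p = 1.9e-05). Of the 3 TGF-beta genes 1 was therefore lower and the other two were higher.

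Of the other BMP and GDF ligands 6 of 16 could be tested, and 4 were higher (66.7%, against 35.3% of all tested genes) and 2 neither. BMP3 had 2, 0 and 8 reads in DMSO and 145, 126 and 161 with erlotinib, and it entered the test only through its erlotinib values. Its groups did not overlap, but its log2 fold change depends on the pseudocount (5.44 with 1, 6.74 with 0.1 and 3.47 with 10) and is given as a description. With at least 10 reads required in every library BMP3 could not be tested, and 3 of these ligands were higher. BMP8B rose by 1.68 (adjusted p = 7.1e-10) and GDF9 by 1.47 (adjusted p = 1.2e-04). BMP8A, a near-identical copy of BMP8B, had a log2 fold change of 0.29 (adjusted p = 0.646), and reads that match both were not counted, so both are uncertain.

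Receptors for both branches were expressed. TGFBR3, which encodes the co-receptor betaglycan, was too low to test (mean signal 7.31 in DMSO and 6.34 with erlotinib). Of 14 receptors and co-receptors 12 could be tested, and 6 were higher (50%), 1 lower and 5 neither, against 35.3% higher and 35.4% lower of all tested genes. BMPR2, the type II receptor of BMPs, had a signal of 1818, 1738 and 1703 in DMSO and 3698, 3854 and 3894 with erlotinib (log2 fold change 1.12, adjusted p = 6.4e-12). The activin receptors ACVR2B and ACVR1B rose by 1.32 (adjusted p = 1.4e-08) and 0.81 (adjusted p = 2.7e-09). TGFBR2, the type II receptor of TGF-beta and the receptor with the highest signal, rose by 0.30 (adjusted p = 2.0e-04), and ACVR1 by 0.30 (adjusted p = 0.0145). ACVRL1 rose by 1.17 (adjusted p = 0.0205) from a mean signal of 13.8, and without Erlo5 or Erlo6 it no longer passed the test (adjusted p = 0.156 and 0.063). The call of ACVR1 was lost in the same way without DMSO1 or Erlo4 (adjusted p = 0.0733 and 0.0629). ENG, the co-receptor endoglin, had a signal of 832, 761 and 841 in DMSO and 368, 356 and 384 with erlotinib, a fall to 0.456 of its DMSO mean (adjusted p = 2.6e-09). TGFBR1 (0.15), ACVR1C (0.63), ACVR2A (0.22), BMPR1A (-0.27) and BMPR1B (0.23) did not pass the test, and the values in parentheses are their log2 fold changes. Under total count scaling TGFBR1, ACVR2A and BMPR1B passed it as well (adjusted p = 0.00147, 0.0249 and 0.0373), which made 9 receptors higher, in a scaling under which 43.3% of all tested genes were called higher.

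Of the 6 signal-carrying SMADs 2 were higher, 2 lower and 2 neither (33.3% higher), close to the shares of all tested genes (35.3% higher and 35.4% lower). On the BMP branch SMAD1 rose by 0.53 (adjusted p = 0.00251) and SMAD9 by 1.95 (adjusted p = 4.9e-05), from a signal of 17.0, 10.2 and 19.3 to 58.1, 66.3 and 58.0, while SMAD5 fell by 0.42 on the log2 scale (adjusted p = 9.7e-05). SMAD5 remained the most abundant of these per kb, at 300.2 with erlotinib against 119.6 for SMAD1 and 10.95 for SMAD9. SMAD3 of the TGF-beta branch, the SMAD with the highest signal, fell by 0.31 on the log2 scale (adjusted p = 2.1e-04), a call that was lost when libraries were scaled to their total count (-0.13, adjusted p = 0.0677). SMAD2 (log2 fold change 0.15) and the shared SMAD4 (0.09) did not pass the test, and both did under total count scaling (0.33 and 0.27). That scaling moved the median of all tested genes from 0.02 to 0.19.

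Of 10 other intracellular and membrane negative regulators of the pathway 8 were higher (80%) and 2 lower, against 35.3% and 35.4% of all tested genes, and their median change was 0.23 log2 units. SKIL, a SMAD corepressor, rose by 0.70 log2 units (adjusted p = 2.6e-07) and the corepressor TGIF1 by 0.56 (adjusted p = 7.1e-07), while SMURF2, a ubiquitin ligase that SMAD7 recruits, fell by 0.68 on the log2 scale (adjusted p = 6.2e-09). TGIF2, BAMBI and PPM1A lay close to the threshold, and 5 of the 10 were higher when DMSO3 was left out. Most secreted antagonists were at or near 0. Of 16 such genes 12 were too low to test and 8 of these were at 0 in every library. Of the 4 tested, 2 were lower and 2 neither, with 35.4% of all tested genes lower. FST, which encodes the activin antagonist follistatin, had a signal of 27.2, 31.6 and 34.3 in DMSO and 6.46, 1.98 and 1.87 with erlotinib. The erlotinib values rest on 7, 2 and 2 reads, so FST entered the test only through DMSO, and its log2 fold change depends on the pseudocount (-3.00 with 1, -3.37 with 0.1 and -1.62 with 10). With at least 10 reads required in every library FST could not be tested, which left TWSG1 as the 1 antagonist called lower. TWSG1 fell by 0.46 on the log2 scale (adjusted p = 9.2e-05), and FSTL3, the one with the highest signal, had a log2 fold change of 0.18 (adjusted p = 0.125).

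TGF-beta is secreted in a latent form, and genes for its storage and release were higher for 7 of the 9 that could be tested (77.8%, against 35.3% of all tested genes), with a median of 0.90 log2 units against 0.02. ITGB8, the integrin subunit that with the alpha V chain frees TGF-beta from its latent complex, had a signal of 34.0, 57.6 and 69.6 in DMSO and 819, 818 and 764 with erlotinib, a rise of 3.93 log2 units (SE 0.20, adjusted p = 2.5e-13). ITGB6, which pairs with the same chain, rose by 1.20 log2 units (adjusted p = 2.2e-11), and ITGAV, the alpha V chain itself, by 0.48 log2 units (adjusted p = 5.9e-06). LTBP4, a latent TGF-beta binding protein, rose by 1.51 log2 units (adjusted p = 7.1e-08).

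Of 16 target genes of TGF-beta 7 were higher (43.8%), 7 lower and 2 neither, against 35.3% and 35.4% of all tested genes, and the median was 0.06 log2 units against 0.02. FN1 (fibronectin) rose 3.04-fold (adjusted p = 6.0e-14) and TGFBI by 0.30 log2 units (adjusted p = 3.2e-04), while SNAI1, a transcription factor of the epithelial to mesenchymal transition, fell by 1.84 on the log2 scale (adjusted p = 8.0e-08) and IL11, a cytokine, by 2.06 (adjusted p = 3.6e-09). All of these genes have other regulators, and which of them act through SMADs was not tested.

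**Figure D4:**
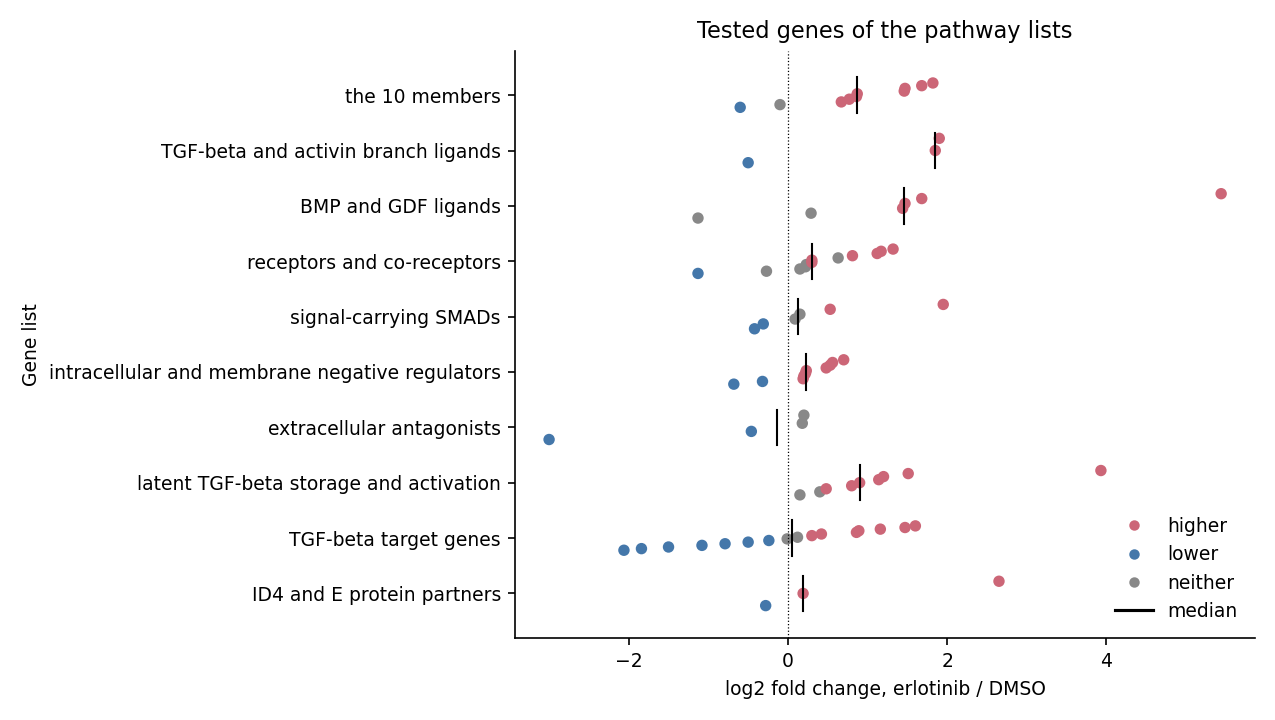
Log2 fold change of erlotinib against DMSO for each tested gene of the 10 members and of the 9 pathway lists, 1 point per gene, with the median of each list as a bar. The medians run from -0.14 for extracellular antagonists to 1.85 for the 3 tested ligands of the TGF-beta and activin branch, and the 16 TGF-beta target genes spread to both sides of 0.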

How the data were processed

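The authors aligned paired-end reads from 6 HCC827 libraries to GRCh38 with Bowtie2 2.3.4, counted the reads of each gene that mapped to 1 place with featureCounts 1.6.3 and used DESeq2 1.18.1, per the methods and the submitters' processing notes. The deposited signal is reads divided by 1 size factor per library (0.8815 to 1.0836), as its values show. Since each value is a whole multiple of 1 step, reads were recovered for 100% of values within 0.01. The depth was 20760204 to 24641819 reads on genes, and replicates differed by more than sampling noise. Reads across introns can be lost in this alignment, so genes with short exons can read low.

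Expression was tested with limma 3.58.1 (trend, two-sided) on log2(signal + 1), for genes whose signal averaged at least 10. A gene was called when its p, adjusted by Benjamini-Hochberg over all tested genes, was under 0.05. The 10 members, the 9 pathway lists and the tests were chosen with earlier results of these data known. In each list the 3 called genes with the largest change and the gene with the highest mean signal were named, with all tested receptors and SMADs. Genes named outside this rule, which are AMH, BMP8A, TCF4, TGFBR3, TGIF2, BAMBI, PPM1A, the markers and those under other observations, were chosen after their values were seen. On simulated data (erlotinib against DMSO, 14198 genes), limma recovered 92 of 96 genes changed by 1 log2 unit and 102 of 102 changed by 2. Of its calls there 5.37% were false. The simulation changed only 200 genes and assumed the spread, whereas the real fit called 5031 genes lower and 5012 higher. The false share of the real calls was therefore not measured. Alternatives used DESeq2 1.42.0, edgeR 4.0.16 and limma-voom on the recovered reads, other scalings, pseudocounts and filters, a threshold of 0.01, and each library left out. Positions and promoter windows came from RefSeq (GRCh38.p14), transcript lengths from GENCODE release 44, and copies from minimap2 2.31-r1302. Figures were drawn with matplotlib 3.10.9 in Python 3.11.15 and the models ran in R 4.3.3.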

Additional observations from a re-analysis of the deposited data

How the results depend on the processing

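No member lost or gained a call under any alternative that could test it. INHBA could not be tested with at least 10 reads in every library, which left 7 members higher. Its log2 fold change ran from 1.25 to 2.20, with adjusted p-values up to 0.0212. BMP4 changed sign under total count scaling (0.07) and without Erlo4 (0.03), and over all left-out libraries it ran from -0.25 to 0.03. Total count scaling moved the median of all genes from 0.02 to 0.19, relative to which TGFB1 still fell (-0.42). Without a filter that median was 0.13. Genes called lower ranged from 3955 to 5140 and genes called higher from 4323 to 6156 over the alternatives.

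In the pathway lists, the BMP and GDF ligands had 1 gene lower (AMH) under DESeq2, edgeR, TMM factors in limma and a pseudocount of 10, and 0 to 1 when a library was left out. AMH averaged 9.87 with erlotinib and entered the test only through DMSO (23.8). Under total count scaling the signal-carrying SMADs had 1 lower and 4 higher, the negative regulators 1 lower, the extracellular antagonists 1 higher, and ID4 with the E proteins 0 lower. The antagonists had 1 lower with at least 10 reads in every library, where FST could not be tested, and 1 higher with no filter. ID4 with the E proteins had 1 higher under TMM factors in limma, a pseudocount of 0.1 and no filter. When each library was left out, the genes higher ranged from 5 to 8 of the negative regulators, 0 to 1 of the antagonists and 1 to 2 of ID4 and the E proteins. The difference in the log2 ratio between groups ran from -0.02 to 0.23 for SMAD7 to SMAD6 and from -0.16 to 0.13 for ID2 to ID3. The causes were not tested. No paired analysis was possible because the columns carry no replicate numbers that the groups share.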

Other observations

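Other genes of the lists are given here as values only. Among the TGF-beta targets SNAI2, a relative of SNAI1, fell by 1.08 on the log2 scale (adjusted p = 2.9e-08 in limma), from a signal of 625, 725 and 593 in DMSO to 299.9, 319 and 294 with erlotinib. ZEB1, another repressor of E-cadherin, fell by 0.50 on the log2 scale (adjusted p = 0.0255). It did not pass the test without DMSO2 (-0.42, adjusted p = 0.0817) or under total count scaling (-0.32, adjusted p = 0.145). Nor did ZEB1 pass it without DMSO3, Erlo5 or Erlo6 (adjusted p = 0.0645, 0.0938 and 0.0501) or with no filter (adjusted p = 0.0509). CTGF fell from a mean signal of 246 to 86.5 (adjusted p = 9.7e-08), while COL1A1, a collagen chain, rose by 1.47 log2 units (adjusted p = 6.8e-07) and JUNB, a subunit of AP-1, by 0.86 (adjusted p = 4.8e-09). FURIN, a protease that cleaves the TGF-beta precursor, rose by 0.80 (adjusted p = 3.2e-08), and the latent TGF-beta binding proteins LTBP2 and LTBP3 rose by 1.14 (adjusted p = 2.1e-07) and 0.90 (adjusted p = 1.5e-07). GDF15, a distant member of the ligand family, had a signal of 154, 123 and 181 in DMSO and 415, 397 and 422 with erlotinib.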
